A study of Mus musculus with 8 samples.

Results

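This account follows 10 genes of the p53 pathway in late 2-cell mouse embryos: Trp53, which encodes p53, its inhibitors Mdm2 and Mdm4, and the response genes Cdkn1a, Trp53inp1, Ccng1, Sesn1, Sesn2, Ercc5 and Apaf1. They were picked by symbol, with earlier results of these data known, from a table of transcript levels in which the rows of each symbol were summed. All 10 were among the 34976 symbols used, and all 10 were among the 11755 genes whose mean level was high enough to be tested. The embryos came from CF-1 mice, an outbred stock. They were injected at the early 1-cell stage with a morpholino, an antisense oligonucleotide that binds RNA, either of scrambled sequence (the control group) or directed at Med13, and then grew to the late 2-cell stage. The labels describe the second oligonucleotide as aimed at the Med13 transcription start site and call that group a MED13 knockdown. Each group had 4 libraries, each made from the total RNA of a separate collection of 40 embryos. The labels give no uninjected embryos, so both groups share the injection. A pool of embryos cannot tell a transcript present in fewer embryos from less of it in each.

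The protein p53 is a transcription factor that cells hold at a low level and stabilise after DNA damage and other stress. MDM2 attaches ubiquitin to p53 and so marks it for breakdown, MDM4 binds p53 and masks its activation domain, and Mdm2 is itself a p53 target, which closes a feedback loop. Mouse embryos without Mdm2 or without Mdm4 die early in gestation unless p53 is removed as well, whereas most embryos without p53 develop. The late 2-cell stage is when the embryo's own genome becomes broadly active while RNA inherited from the egg is being cleared, so a level can hold RNA of both sources. MED13 belongs to the kinase module of Mediator, the complex that connects transcription factors to RNA polymerase II.

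Promoter sequences are shown for the members that differed between the groups and for those that hold the letters p53 binds, because p53 acts by binding DNA near its targets. RefSeq (GRCm38.p6) gave windows of 300 bases, 250 before and 50 after a gene's start, for 9 of the 10 members and 12 windows in all. Trp53inp1 was not matched. The windows were searched on both strands for the p53 consensus decamer, a palindrome of 10 bases, of which a full response element holds a pair. A decamer was found in 5 of the 12 windows (41.7%), against 8.36% of all 32851 windows. Counted by gene, 5 of the 9 members had one. The members were chosen as genes of the p53 pathway, so this comparison is not independent of that choice. The search was first planned for members that differed between the groups and was widened to all members after values were seen. Stretches around the matches follow, read 5′ to 3′ on the gene's strand, with the decamer in capitals.
Trp53, chr11:69580269-69580308, plus strand: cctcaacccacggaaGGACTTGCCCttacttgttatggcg
Mdm2, chr10:117710920-117710959, minus strand: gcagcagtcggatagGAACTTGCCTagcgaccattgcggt
Cdkn1a, chr17:29090891-29090952, plus strand: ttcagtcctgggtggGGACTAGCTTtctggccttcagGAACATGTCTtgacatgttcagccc
Ccng1, chr11:40755447-40755486, minus strand: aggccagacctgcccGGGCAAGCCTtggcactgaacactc
Sesn1, chr10:41887251-41887290, plus strand: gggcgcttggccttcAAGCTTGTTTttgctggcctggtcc

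Cdkn1a was the member with a window that held a pair of decamers, 12 bases apart and starting at -73 and -51 from that window's start of transcription. This window (chr17:29090729-29091028) is the upstream one of 2. The other (chr17:29093519-29093818), at the start of the most abundant model Cdkn1a-201, held no match. Of all windows, 0.359% held 2 or more. The windows of Ercc5 and Apaf1, the members with the largest differences described next, held no match, which says only that these letters are not in these 300 bases. Their CG pairs are shown in capitals. Apaf1 had 46, a number reached or passed by 1.65% of all windows, and Ercc5 had 21, reached or passed by 24.8%, with a median of 7 over all windows. Members that did not pass the test had high counts too, such as Mdm2 with 35 and a Sesn1 window with 31, and the lowest was a Cdkn1a window with 2.
Ercc5, chr1:44147494-44147793, plus strand: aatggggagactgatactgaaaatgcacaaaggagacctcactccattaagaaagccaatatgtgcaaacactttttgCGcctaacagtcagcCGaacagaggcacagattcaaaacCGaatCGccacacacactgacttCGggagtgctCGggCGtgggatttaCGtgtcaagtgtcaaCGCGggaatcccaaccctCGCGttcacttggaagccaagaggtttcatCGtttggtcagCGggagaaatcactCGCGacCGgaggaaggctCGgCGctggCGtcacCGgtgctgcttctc
Apaf1, chr10:91082694-91082993, minus strand: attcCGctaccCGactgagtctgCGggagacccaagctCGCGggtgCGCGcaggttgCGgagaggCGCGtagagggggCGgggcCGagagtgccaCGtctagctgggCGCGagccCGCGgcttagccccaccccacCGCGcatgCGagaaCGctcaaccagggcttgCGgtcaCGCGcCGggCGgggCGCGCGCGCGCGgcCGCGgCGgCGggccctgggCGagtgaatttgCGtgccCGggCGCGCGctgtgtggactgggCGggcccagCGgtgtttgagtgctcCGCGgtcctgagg

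After Med13 morpholino, Ercc5 rose, Apaf1 and Trp53inp1 fell, and the other 7 members did not pass the test. Levels are summed FPKM, fragments scaled to transcript length and library total. Differences are Med13 morpholino minus scrambled on the log2(FPKM + 1) scale, with the standard error, folds and their 95% intervals are taken from them, and they were tested with limma across all 11755 genes at a Benjamini-Hochberg adjusted p below 0.05. Of the 10 members, 3 passed (3 also at an unadjusted p below 0.05), beside 17.1% of all genes tested. The 1 member that rose stands beside 9.29% of all genes, and the 2 that fell beside 7.81%. The ranges of the 2 groups were apart for 4 of the 10 members, beside 21.6% of all genes. The median difference of the members was -0.02, against -0.06 for all genes tested, and the median size of a difference, whatever its sign, was 0.29 against 0.27.

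**Figure D1:**
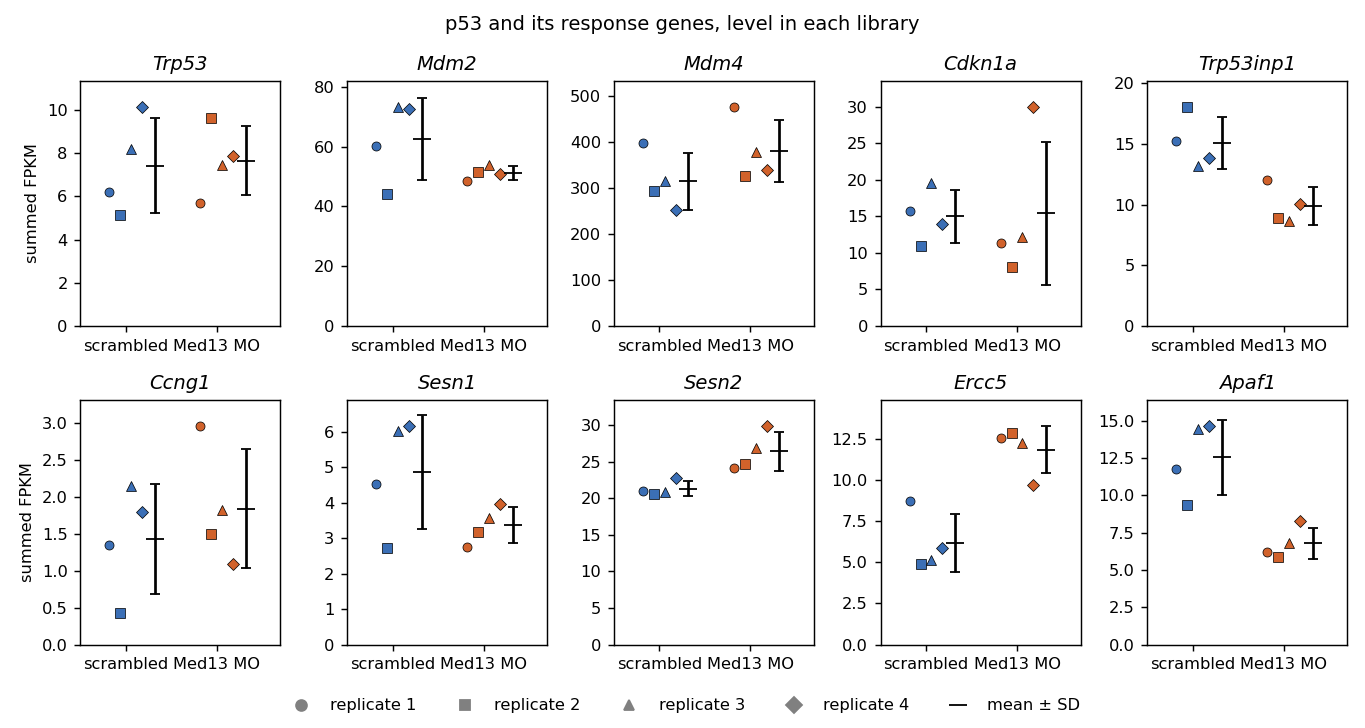
Summed FPKM (y axis, from 0) of the 10 p53 genes in the 4 scrambled and the 4 Med13 morpholino libraries. Each marker is 1 library, with its shape giving the replicate number, and the bar gives the mean ± SD. The groups are apart for Trp53inp1, Sesn2, Ercc5 and Apaf1, and 1 Cdkn1a library stands at 29.9 FPKM.

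Trp53 itself did not differ detectably. In scrambled replicates 1 to 4 it stood at 6.19, 5.16, 8.19 and 10.1 FPKM, and in Med13 morpholino replicates 1 to 4 at 5.69, 9.61, 7.44 and 7.87 FPKM. The lowest and the highest library were both scrambled, and the second group lay inside their range. The means were 7.42 ± 2.20 and 7.65 ± 1.61 FPKM (SD, n = 4 each), a difference of 0.06 ± 0.21 (limma adjusted p = 0.871), and the 95% interval of the fold ran from 0.762 to 1.42. The gene (ENSMUSG00000059552, chr11:69580359-69591873, plus strand, mm10 as GENCODE M21 places it) had 6 transcript rows, of which 0 of the 4 tested passed in limma (0 also at an unadjusted p below 0.05). The most abundant, Trp53-201, rested on 76 to 191 fragments per library.

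Mdm2, the ubiquitin ligase, was lower on average after Med13 morpholino without passing the test. Its scrambled libraries held 60.2, 44.3, 73.1 and 72.7 FPKM, and its Med13 morpholino libraries held 48.4, 51.4, 54.0 and 50.7 FPKM. Scrambled replicate 2 was the lowest of all 8, and the other 3 scrambled libraries were above every Med13 morpholino library. The means of 62.6 ± 13.6 and 51.1 ± 2.29 FPKM (SD, n = 4 each) differed by -0.26 ± 0.18 (limma adjusted p = 0.336, fold interval 0.639 to 1.09). The coefficient of variation was 21.7% among scrambled and 4.47% among Med13 morpholino libraries. Mdm2 (ENSMUSG00000020184, chr10:117688875-117710758, minus strand) had 9 transcript rows, of which 0 of the 8 tested passed in limma (0 also at an unadjusted p below 0.05).

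Mdm4, the inhibitor that has no strong ligase activity of its own, was the most abundant member. It measured 398, 293, 314 and 251 FPKM in the scrambled libraries and 475, 326, 378 and 339 FPKM after Med13 morpholino. Replicate 1 was the highest of its group in both, the ranges overlapped, and 3 of the 4 Med13 morpholino libraries lay inside the scrambled range. The means were 314 ± 61.7 and 379 ± 67.4 FPKM (SD, n = 4 each), 0.28 ± 0.19 apart (limma adjusted p = 0.331, fold interval 0.912 to 1.61). Mdm4-210 alone held 14831 to 34986 fragments per library, and what set the width of that interval was not tested. Mdm4 (ENSMUSG00000054387, chr1:132959484-133030561, minus strand) has an annotated pseudogene copy, as Trp53 does, with which reads can be shared.

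Cdkn1a encodes p21, the cyclin-dependent kinase inhibitor through which p53 halts the cell cycle. It gave 15.7, 10.9, 19.6 and 13.9 FPKM in scrambled libraries and 11.4, 8.14, 12.1 and 29.9 FPKM after Med13 morpholino. Med13 morpholino replicate 4 was the highest of all 8 libraries, and the other 3 of its group lay below scrambled replicates 1, 3 and 4. The means were nearly equal, 15.02 ± 3.61 and 15.39 ± 9.84 FPKM (SD, n = 4 each), and the difference was -0.10 ± 0.31 (limma adjusted p = 0.845, fold interval 0.581 to 1.49). Without Med13 morpholino replicate 4 it was -0.46 (limma adjusted p = 0.147). All 3 Cdkn1a transcript rows were at their highest in that library, at 9.04 to 11.3 FPKM. Of the exonic bases of Cdkn1a (ENSMUSG00000023067, chr17:29090976-29100727, plus strand), 7.68% lie under AC167363.2 on the other strand, and whether counting used strand was not given in the sources used here.

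Ccng1, which encodes cyclin G1, a p53 target that feeds back on MDM2, was the least abundant member. It stood at 1.34, 0.424, 2.15 and 1.78 FPKM in scrambled and at 2.96, 1.49, 1.82 and 1.08 FPKM in Med13 morpholino libraries. The ranges overlapped, with scrambled replicate 2 the lowest and Med13 morpholino replicate 1 the highest. Means of 1.42 ± 0.744 and 1.84 ± 0.804 FPKM (SD, n = 4 each) differed by 0.25 ± 0.25 (limma adjusted p = 0.529, fold interval 0.813 to 1.73). The gene (ENSMUSG00000020326, chr11:40748552-40755311, minus strand) rested on as few as 64 fragments per library for its main transcript.

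The Sestrins are stress-induced inhibitors of mTORC1, the kinase complex that promotes growth, and act through the GATOR complexes. Sesn2 measured 21.0, 20.5, 20.9 and 22.8 FPKM in scrambled and 24.1, 24.7, 26.9 and 29.9 FPKM in Med13 morpholino libraries. Every Med13 morpholino library was above every scrambled one, yet the gene did not pass the test. The means were 21.3 ± 1.01 and 26.4 ± 2.62 FPKM (SD, n = 4 each), 0.30 ± 0.14 apart (limma adjusted p = 0.174, fold interval 0.990 to 1.52). Sesn2 (ENSMUSG00000028893, chr4:132492032-132510501, minus strand) has 1 transcript row, so its sum cannot count a fragment more than once among its own isoforms.

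Sesn1 leaned the other way. Its values were 4.52, 2.73, 6.02 and 6.17 FPKM in scrambled libraries and 2.76, 3.16, 3.57 and 3.95 FPKM after Med13 morpholino. Scrambled replicate 2 was the lowest of all 8, and the other 3 scrambled libraries were above every Med13 morpholino library. The means of 4.86 ± 1.60 and 3.36 ± 0.513 FPKM (SD, n = 4 each) differed by -0.39 ± 0.21 (limma adjusted p = 0.219, fold interval 0.560 to 1.05). Without scrambled replicate 2 the difference was -0.59 and passed (limma adjusted p = 0.0268). Sesn1 (ENSMUSG00000038332, chr10:41809935-41908424, plus strand) starts 64 bases from Cep57l1 on the other strand, which measured 8.84 ± 0.681 and 6.46 ± 0.799 FPKM (SD, n = 4 each), a difference of -0.40 ± 0.15 (limma adjusted p = 0.0755).

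Ercc5 had the largest rise among the members. It encodes XPG, the endonuclease that cuts the damaged strand on the 3′ side of a lesion in nucleotide excision repair. Its levels were 8.74, 4.90, 5.12 and 5.85 FPKM in scrambled libraries and 12.6, 12.9, 12.2 and 9.72 FPKM after Med13 morpholino. The groups were apart, with scrambled replicate 1 and Med13 morpholino replicate 4 nearest to each other. From 6.15 ± 1.77 to 11.9 ± 1.45 FPKM (SD, n = 4 each), the rise was 0.87 ± 0.18 on the log2 scale (limma adjusted p = 0.00863). The fold of FPKM + 1 was 1.83 with a 95% interval of 1.38 to 2.41, and the ratio of the mean FPKM was 1.93. The rise passed in all 16 other fits, the 8 that each left out 1 library and the 8 with another setting. Ercc5 (ENSMUSG00000026048, chr1:44147744-44181260, plus strand) had 7 transcript rows.

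Apaf1 had the largest fall. Its protein assembles with cytochrome c into the apoptosome, the platform that activates caspase-9. It stood at 11.8, 9.35, 14.4 and 14.7 FPKM in scrambled libraries and at 6.17, 5.86, 6.79 and 8.26 FPKM after Med13 morpholino. The groups were apart, with scrambled replicate 2 and Med13 morpholino replicate 4 nearest to each other. From 12.6 ± 2.50 to 6.77 ± 1.07 FPKM (SD, n = 4 each), it fell by 0.79 ± 0.18 on the log2 scale (limma adjusted p = 0.0111). The fold of FPKM + 1 was 0.577 with a 95% interval of 0.443 to 0.752, and the ratio of the mean FPKM was 0.539. The fall passed in all 16 other fits. Apaf1 (ENSMUSG00000019979, chr10:90989311-91082770, minus strand) starts 170 bases from Ikbip on the other strand, which measured 2.82 ± 0.294 and 2.71 ± 0.625 FPKM (SD, n = 4 each), a difference of -0.05 ± 0.16 (limma adjusted p = 0.841).

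Trp53inp1 encodes a stress-induced nuclear protein that promotes p53-dependent cell death. It measured 15.3, 18.0, 13.2 and 13.9 FPKM in scrambled libraries and 12.1, 8.89, 8.69 and 10.02 FPKM after Med13 morpholino. The groups were apart, with scrambled replicate 3 and Med13 morpholino replicate 1 nearest to each other. From 15.1 ± 2.14 to 9.91 ± 1.55 FPKM (SD, n = 4 each), it fell by 0.56 ± 0.16 on the log2 scale (limma adjusted p = 0.0329). The fold of FPKM + 1 was 0.678 with a 95% interval of 0.531 to 0.865, and the ratio of the mean FPKM was 0.657. The call was close to the threshold. It was lost without scrambled replicate 1 (limma adjusted p = 0.0708), 3 (0.0542) or 4 (0.0538) and without Med13 morpholino replicate 2 (0.107) or 3 (0.0975), while the difference stayed between -0.65 and -0.48 in all 16 other fits. Trp53inp1 (ENSMUSG00000028211, chr4:11156431-11174379, plus strand) had 4 transcript rows.

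**Figure D2:**
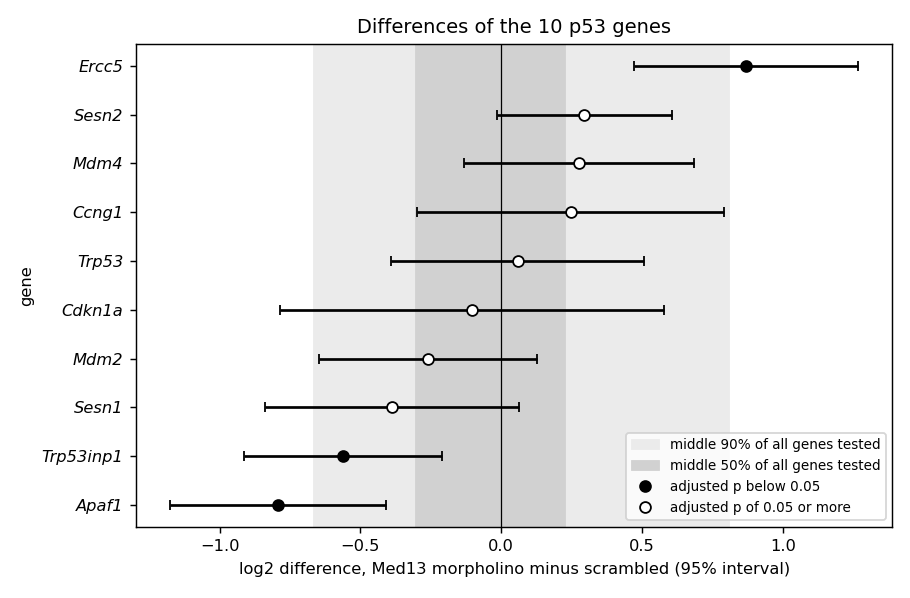
Difference between groups (x axis, log2 of FPKM + 1, Med13 morpholino minus scrambled, with its 95% interval) for the 10 p53 genes, ordered by size, filled where the adjusted p was below 0.05. The grey bands hold the middle 50% (-0.30 to 0.23) and 90% (-0.66 to 0.81) of all 11755 genes tested, and the estimates of Ercc5 and Apaf1 lie outside the wider band.

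Scrambled replicate 2 was the lowest of its group in 8 of the 10 members (80%) and in 52.8% of all genes tested. It was the highest in Trp53inp1. In that library the 10 most abundant symbols held 20.8% of the summed FPKM, against 13.0% to 13.8% in the other 3 scrambled and 16.4% to 17.5% in the Med13 morpholino libraries. It also had the fewest symbols above 0, 25781 against 28338 to 30008 in the others. The part of this library's composition in the members' values was not tested beyond the fits without it. Without it the members that passed were Trp53inp1, Sesn1, Ercc5 and Apaf1. The Trp53inp1 difference was then -0.48, just under the threshold (limma adjusted p = 0.0499).

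**Figure D3:**
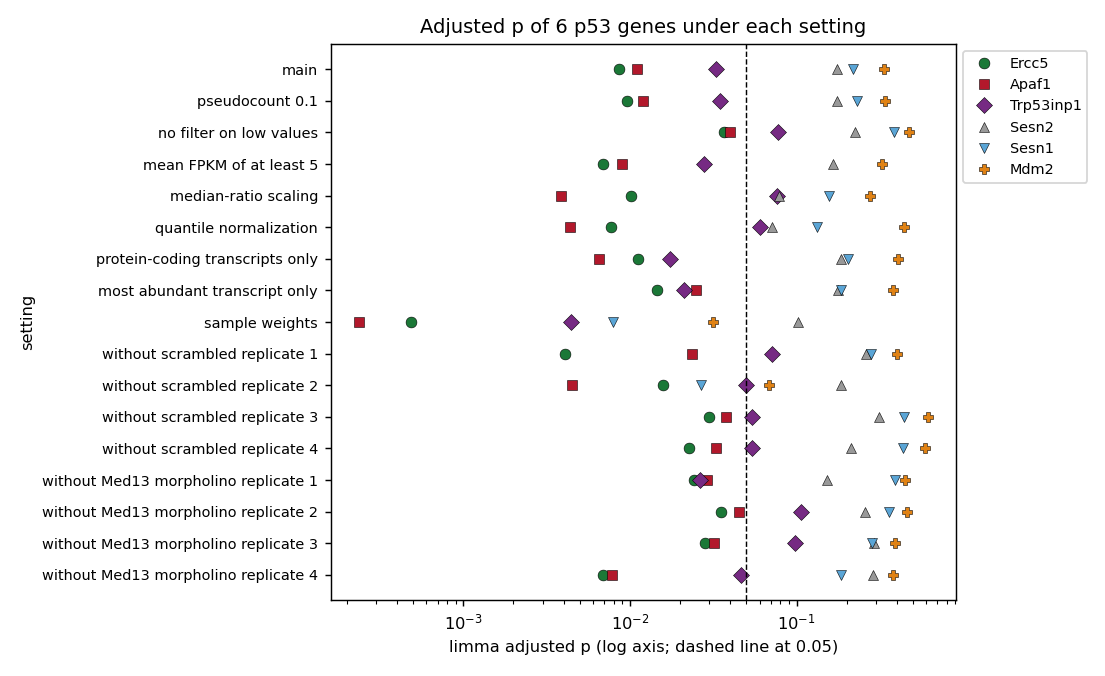
Adjusted p (x axis, log scale, dashed line at 0.05) of 6 of the p53 genes in the fit described and in 16 other fits (y axis). Ercc5 and Apaf1 lie left of the line in every fit shown, Trp53inp1 falls on both sides, Sesn1 and Mdm2 cross it with sample weights, at 0.00793 and 0.0314, and Sesn1 also without scrambled replicate 2, at 0.0268.

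Levels of different genes can be set side by side only per length, here by the mean FPKM of each gene's most abundant transcript over the 8 libraries. Mdm4 led at 92.2, followed by Sesn2 at 23.8 and Mdm2 at 14.3. Next came Cdkn1a at 5.65 and Trp53inp1 at 5.46, then Ercc5 at 4.23 and Apaf1 at 4.13, and within each of these pairs the levels differed by less than the spread over libraries. Sesn1 at 2.14, Trp53 at 1.96 and Ccng1 at 1.38 were the lowest by this measure. The place of Apaf1 comes from the short noncoding Apaf1-204, and its long coding models Apaf1-202 and Apaf1-201 averaged 1.38 and 1.37. The transcript of the p53 inhibitor Mdm4 was thus far above that of p53 itself in these embryos, as a level of RNA.

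Single transcript models were tested in the same way over 30731 transcripts, of which 12.9% passed. The 10 genes had 56 transcript rows, 46 of them tested, and 9 passed, 3 higher and 6 lower, all in Ercc5, Apaf1 and Trp53inp1. Isoforms share exons. The rule for assigning a fragment among them was not given in the sources used here. These are therefore levels of models and not of separate molecules. In the fits that left out 1 library, 3 to 9 passed, with 3 without Med13 morpholino replicate 2 and 5 without Med13 morpholino replicate 3.

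In Ercc5, all 3 models abundant enough to test rose. The coding Ercc5-201 (3907 bases, 15 exons) went from 2.99 ± 0.821 to 5.47 ± 0.627 FPKM (SD, n = 4 each), a difference of 0.71 (limma adjusted p = 0.016). Ercc5-202, which retains an intron (4239 bases), went from 2.21 ± 0.645 to 4.43 ± 0.638 FPKM, a difference of 0.77 (limma adjusted p = 0.011). The ratio of the retained-intron to the coding model was 0.737 ± 0.0752 in scrambled and 0.807 ± 0.0273 in Med13 morpholino libraries (SD, n = 4 each), with overlapping ranges. The short Ercc5-206 (956 bases) rose as well, by 0.55 (limma adjusted p = 0.015), on 14 to 52 fragments.

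In Apaf1, 4 of 6 tested models fell. The coding models of 27 exons went from 1.86 ± 0.423 to 0.888 ± 0.0818 FPKM for Apaf1-201 and, for Apaf1-202, from 1.93 ± 0.449 to 0.835 ± 0.0486 FPKM (n = 4 each, SD), differences of -0.59 and -0.66 (limma adjusted p = 0.014 and 0.0080). Apaf1-204, a noncoding model of 511 bases at the 3′ end of the gene (chr10:90989313-90991590), had the highest level per length and fell from 5.18 ± 0.860 to 3.07 ± 0.568 FPKM, by 0.60 (limma adjusted p = 0.029). The coding Apaf1-208 fell by 0.47 (limma adjusted p = 0.025). Apaf1-203 and Apaf1-207 differed by -0.23 and -0.27 and did not pass (limma adjusted p = 0.439 and 0.112).

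In Trp53inp1, the models with the long last exon fell, and those without it did not pass. Trp53inp1-201 (5404 bases) and Trp53inp1-202 (5432 bases) both end in an exon of 4670 bases at chr4:11169710-11174379. The first went from 6.91 ± 1.37 to 4.02 ± 0.730 FPKM and the second from 6.52 ± 1.15 to 4.00 ± 0.924 FPKM (n = 4 each, SD), differences of -0.65 and -0.60 (limma adjusted p = 0.024 and 0.039). Trp53inp1-203 (587 bases) and Trp53inp1-204 (1674 bases), noncoding models that stop before that exon, stood at 0.900 ± 0.147 and 1.06 ± 0.147 FPKM and at 0.757 ± 0.289 and 0.839 ± 0.103 FPKM. Their differences were 0.12 and 0.08 (limma adjusted p = 0.527 and 0.725), on 18 to 32 and 25 to 76 fragments per library. The difference between the models' changes was not tested.

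In Mdm4, 0 of 14 models passed in limma (0 also at an unadjusted p below 0.05), and they did not all lean the same way. The most abundant, Mdm4-210 (7105 bases), ends in an exon of 6006 bases at chr1:132986220-132992225 and went from 82.6 ± 17.6 to 102 ± 20.8 FPKM (SD, n = 4 each), a difference of 0.30 (limma adjusted p = 0.353). Mdm4-206 (4694 bases) ends in a separate exon farther downstream, at chr1:132959484-132963156, and stood at 14.4 ± 2.60 and 14.3 ± 1.51 FPKM, a difference of 0.00 (limma adjusted p = 0.996). The ratio of Mdm4-210 to Mdm4-206 was 5.51, 6.98, 5.66 and 4.89 in scrambled and 8.10, 5.96, 7.01 and 7.28 in Med13 morpholino libraries. The ranges overlapped, and this ratio, chosen after the values were seen, was not tested.

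**Figure D4:**
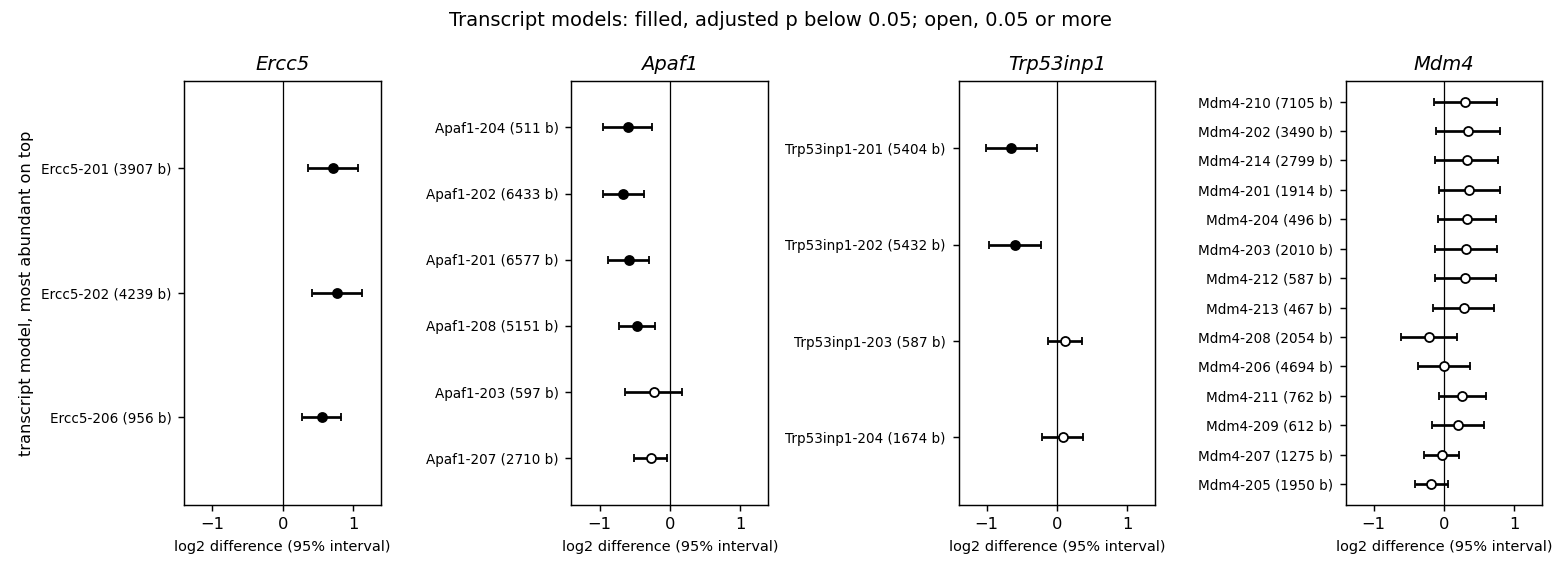
Difference between groups (x axis, log2 of FPKM + 1, with its 95% interval) for each tested transcript model of Ercc5, Apaf1, Trp53inp1 and Mdm4, the most abundant on top, with model lengths in bases. Filled points had an adjusted p below 0.05: 3 of 3 in Ercc5, 4 of 6 in Apaf1, 2 of 4 in Trp53inp1 and 0 of 14 in Mdm4.

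Around the members, 10 lists of genes by role in the p53 network held 219 genes, counting each once. Of the 163 tested, 28 passed (17.2%, beside the 17.1% of all genes), 6 higher and 22 lower, with a median difference of -0.11 against -0.06. Over all genes tested, 9.29% passed higher and 7.81% lower. That balance varied with the fit: 54.3% of all calls were higher here, 39.5% with sample weights and 43.6% without scrambled replicate 2. In the 4 lists of p53 target genes, 42 genes were tested and 8 passed (19.0%), 1 higher and 7 lower, with a median of -0.06. The 1 that rose was Ercc5. The lists overlap with the members and with each other.

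Among targets that arrest the cell cycle, 2 of 12 passed (16.7%, beside the 17.1% of all genes) and both fell, with a median difference of -0.09. Tob1, an antiproliferative protein that recruits the deadenylase complex, fell from 10.1 ± 2.05 to 2.57 ± 0.181 FPKM (SD, n = 4 each), by 1.62 (limma adjusted p = 9.9e-05). Sfn, the 14-3-3 sigma protein, fell from 3.93 ± 0.653 to 1.30 ± 0.833 FPKM, by 1.16 (limma adjusted p = 0.0052). Among CDK inhibitors, 0 of 4 passed in limma (0 also at an unadjusted p below 0.05), and Cdkn1a was the most abundant of them. Targets that promote apoptosis held 13 tested genes, of which 4 passed (30.8%) and all 4 fell, with a median of -0.05. Over all genes, 17.1% passed and 7.81% passed lower. The 4 were Apaf1, Trp53inp1, Bax and Tnfrsf10b. In the 8 fits without 1 library, Trp53inp1 lost its call in 5 and Bax in 7. Beside Apaf1 and Trp53inp1, the pore-forming Bax fell from 5.34 ± 1.28 to 2.94 ± 1.37 FPKM (SD, n = 4 each), by 0.73 (limma adjusted p = 0.0465), with overlapping groups.

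Among targets in metabolism and redox control, 1 of 9 passed (11.1%, beside the 17.1% of all genes), and the list's median was -0.34. It was the glutaminase Gls2, which fell by 0.74 from 3.12 ± 0.944 to 1.43 ± 0.385 FPKM (n = 4 each, SD; limma adjusted p = 0.022). Of the 8 DNA repair targets counted here, Ercc5 was the 1 that passed (12.5%), and their median was 0.10. In nucleotide excision repair, the pathway of Ercc5, 2 of 32 rose and 4 fell, with a median of -0.09. Ercc4, whose protein XPF cuts on the 5′ side of the lesion, rose from 1.46 ± 0.158 to 3.71 ± 1.07 FPKM (SD, n = 4 each), by 0.91 (limma adjusted p = 0.0071). Ercc6, whose protein CSB recognises stalled polymerase, fell from 4.83 ± 0.392 to 2.92 ± 0.171 FPKM, by 0.57 (limma adjusted p = 0.015). The share of the list that passed, 18.8%, was near the 17.1% of all genes, and most of those that passed fell.

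In the apoptosome and caspase list, the pathway of Apaf1, 3 of 16 passed (18.8%, beside the 17.1% of all genes). All 3 fell, and the list's median was -0.14. Beside Apaf1, those that fell were the nuclease gene Endog (-0.70, limma adjusted p = 0.024) and Xiap (-0.57, limma adjusted p = 0.035). The protein of Xiap inhibits caspases and so acts against the list's name. In the Sestrin and GATOR-mTORC1 list, 1 of 25 rose and 2 fell (12% passed), with a median of -0.06. Gatsl3, also called Castor1, an arginine sensor that restrains mTORC1 through GATOR2, fell from 8.61 ± 2.69 to 3.61 ± 1.10 FPKM (SD, n = 4 each), by 1.05 (limma adjusted p = 0.00863). Tsc1, an mTORC1 inhibitor, fell by 0.62 (limma adjusted p = 0.018), and the lysosomal scaffold gene Lamtor2 rose by 0.64 (limma adjusted p = 0.022).

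Upstream of p53, 2 of 32 regulators and family members rose and 5 fell, with a median of -0.09. The share that passed was 21.9%, beside the 17.1% of all genes. Prmt5, an arginine methyltransferase known to modify human p53, fell from 20.3 ± 1.53 to 10.3 ± 2.72 FPKM (SD, n = 4 each), by 0.95 (limma adjusted p = 0.0049). It missed the threshold when coding transcripts alone (0.0613) or the most abundant transcript alone (0.0943) were used. Hipk2, a kinase that phosphorylates p53, rose by 0.65 from 12.5 ± 0.973 to 20.3 ± 2.63 FPKM (n = 4 each, SD; limma adjusted p = 0.014), and Trp53bp1, the damage mediator 53BP1, fell by 0.68 (limma adjusted p = 0.015). Of 19 damage kinases and mediators, 1 rose and 2 fell (15.8% passed), with a median of -0.31. The histone variant gene H2afx rose by 1.05 from 8.81 ± 3.25 to 19.0 ± 5.46 FPKM (n = 4 each, SD; limma adjusted p = 0.021), with overlapping groups. The ubiquitin ligase gene Rnf168 and Atrip, the partner of the kinase ATR, fell by 0.67 and 0.59 (limma adjusted p = 0.020 and 0.035).

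Many of these calls lay near the threshold and were lost in fits without 1 library or another, while the difference kept 0.755 to 1.29 times its size. The counts that follow leave out the members, whose fits are given above, and Tnfrsf10b, whose other fits are not given. The number of the remaining named genes that lost their call was 5 without scrambled replicate 1 (Atrip, Bax, Gls2, H2afx and Xiap, limma adjusted p 0.0515 to 0.0858), 2 without replicate 2 (Bax and Xiap, 0.0503 to 0.0888), 7 without replicate 3 (Atrip, Bax, Endog, Gls2, H2afx, Lamtor2 and Rnf168, 0.0508 to 0.0871) and 5 without replicate 4 (Atrip, Bax, Endog, Rnf168 and Xiap, 0.0545 to 0.0705). Without Med13 morpholino replicate 1 it was 3 (Bax, Endog and Gls2, 0.0501 to 0.127), without replicate 2 it was 8 (Bax, Endog, Gls2, H2afx, Rnf168, Trp53bp1, Tsc1 and Xiap, 0.051 to 0.143), without replicate 3 it was 7 (Atrip, Bax, Endog, Gls2, H2afx, Lamtor2 and Xiap, 0.0521 to 0.0893), and without replicate 4 it was 2 (Atrip and Xiap, 0.0673 to 0.0738). Prmt5, Hipk2, Tob1, Sfn, Ercc4, Ercc6 and Gatsl3 passed in all 8 of these fits.

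**Figure D5:**
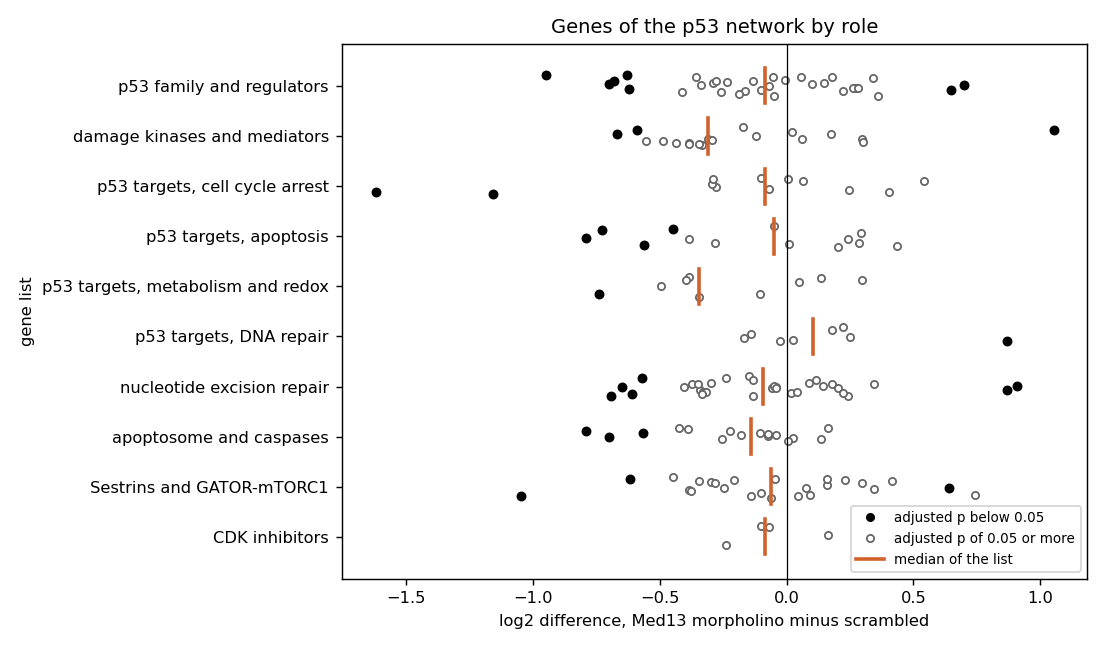
Difference between groups (x axis, log2 of FPKM + 1, Med13 morpholino minus scrambled) for each tested gene of 10 p53 network lists (y axis), 1 point per gene and list, filled where the adjusted p was below 0.05, with the list's median as a bar. Medians run from -0.34 in metabolism and redox to 0.10 in DNA repair, and the apoptosis and arrest targets hold no filled point above 0.

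Libraries held 31378977 to 48050262 fragments, and their log2 values correlated at r of 0.943 to 0.986 within groups and 0.882 to 0.958 between groups. Med13 RNA stood at 41.3 ± 4.31 and 42.2 ± 2.14 FPKM (SD, n = 4 each), a difference of 0.03 (exact two-sided permutation p = 0.629 over 70 assignments, of which the smallest possible is 0.0286). Morpholinos often act on translation, with the bound RNA left intact, so this level is no check of the labels. Of the 2-cell embryo markers, 7 of 10 tested rose and 1 fell, so 80% passed. Of all genes tested, 17.1% passed, 9.29% higher and 7.81% lower. The summed level of the 2-cell markers was 85.4 to 177 FPKM in scrambled and 211 to 474 FPKM in Med13 morpholino libraries. Of the oocyte markers, 6 of 8 rose (75%) and 0 fell, and the sum of the list was 565 to 698 against 786 to 1020 FPKM. The largest part of that sum was Dppa3, which did not pass, at 471 to 595 FPKM in scrambled and 368 to 647 FPKM in Med13 morpholino libraries. Oosp1, among the 6 that rose, stood at 30.1 to 48.8 FPKM in scrambled and 167 to 202 FPKM in Med13 morpholino libraries. Both sums were higher in every Med13 morpholino library than in any scrambled one, and their part in the members' differences was not tested. Cumulus and sperm markers had 0 members abundant enough to test, with sums of at most 2.59 and 0.999 FPKM. Blood and immune markers had 2 tested, neither of which passed in limma (0 at an unadjusted p below 0.05), with sums of 2.95 to 5.21 and 2.92 to 5.37 FPKM. Oviduct markers had 2 tested, of which Ovgp1 fell, with sums of 25.8 to 35.9 and 29.5 to 37.0 FPKM. Most of these sums was Epcam, at 17.8 to 31.1 and 25.4 to 32.5 FPKM. The rows used held 11 of 12 listed 2-cell markers, 6 of 8 sperm markers and 7 of 8 blood and immune markers. The hemoglobin gene Hbb-bs was the blood marker absent from them. Of the listed markers present, 0 were at 0 in all libraries.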

How the data were processed

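RNA levels were measured in 8 libraries of pooled embryos. Per the labels' protocols, total RNA was isolated with a PicoPure kit, amplified by the Ovation V2 system and, as 400 ng of cDNA, made into TruSeq libraries. The authors deposited a table of FPKM values per Ensembl transcript. Per the submitters' processing notes, BWA and the mm10 build were used. The counting tool, strandedness and all versions were not given in the sources used here. Each value column was assigned by the number in a sample title, and 0 were left unmatched.

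Of 97496 rows, 3758, exactly those with a hyphen in the symbol, had their values moved by 1 column and were left out. The 93738 used, of which 98.7% matched GENCODE M21, were summed per symbol, which may count a fragment of shared exons more than once. Genes averaging 1 FPKM or more (transcripts, 0.5) were tested on log2(FPKM + 1) in R 4.3.3 by limma 3.58.1 with a mean-variance trend and no covariate, two-sided, and Benjamini-Hochberg adjustment over all 11755 genes or 30731 transcripts. The pseudocount understates changes of low genes. The fit was tested on simulated data. Library totals were read back from steps of 0.5 fragments, on which 94.1% to 94.2% of values of up to 20 fragments fell within 0.005. Amplified reads carry no molecular identifiers. The spread that p-values rest on is that between libraries, each from a separate collection, so collection and library preparation cannot be told apart.

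The members and lists were chosen with earlier results of these data known. A listed DNA repair target is not reported here and is left out of the list counts. Named from each list were the up to 3 called members with the smallest adjusted p or, with 0 called, the most abundant. Alternatives changed the pseudocount, filter, scaling, transcript choice and sample weights, or left out 1 library, and a block of neighbouring title numbers was added after the data were seen.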

Additional observations from a re-analysis of the deposited data

Results flagged for a closer look

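Ercc4 in Med13 morpholino replicate 4 stood apart from its group. That library held 2.10 FPKM, and the other 3 Med13 morpholino libraries held 4.19 to 4.27 FPKM. The gap to the nearest of the others was 0.965 of the group's range, above Dixon's 95% critical value for 4 samples. It was the 1 such case among 56 groups examined, where chance alone gives about 1 in 20.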

How the results depend on the processing

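Over the 11755 genes, 2010 passed, and this count was 1012 with no filter on low values, 1137 at a mean FPKM of at least 5, 4336 with sample weights, and 975 to 2406 when 1 library was left out. Of the 10 p53 genes, 3 passed, 5 with sample weights, where Mdm2 (-0.39, limma adjusted p = 0.0314) and Sesn1 (-0.59, 0.00793) joined, and 2 to 4 when 1 library was left out. Of their transcripts, 9 passed, and 3 to 9 did when 1 library was left out. The share of calls that were higher was 54.3%, against 39.5% with sample weights and 43.6% without scrambled replicate 2. Trp53inp1 also missed the threshold with no filter (0.0769), median-ratio scaling (0.0762) and quantile normalization (0.0604). The cause of these changes was not tested, beyond more genes tested under no filter and fewer at the higher filter. The differences of the 3 genes that passed kept their sign in all 16 other fits. Among those that did not pass, the sign changed for Trp53 in 3 fits (-0.08 to -0.01), for Cdkn1a in 2 (0.03 to 0.12) and for Ccng1 in 1 (-0.03), and the Med13 difference was -0.0011 without scrambled replicate 3. At a mean FPKM of at least 5, Ccng1 and Sesn1 were not tested. Without the filter, 8 of the named network genes other than the members and Tnfrsf10b lost their call, Atrip, Bax, Endog, Gls2, H2afx, Lamtor2, Rnf168 and Xiap (0.0577 to 0.148). Calls were also lost with median-ratio scaling (Atrip, Bax and Xiap, 0.06 to 0.0749), quantile normalization (Atrip and Xiap, 0.0522 to 0.0534) and the most abundant transcript alone (Tsc1, 0.0654). The labels state no pairs, but title numbers alternate between the groups. With these neighbours as a replicate block, an alternative added after the data were seen, 2620 genes passed and the same 3 p53 genes. Deviations from the group means correlated at 0.00851 to 0.378 within the 4 pairs, and in 3 of the 4 more than with any other library of the second group.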

Other observations

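Genes whose log2 levels followed those of a member most closely over the 8 libraries are given as a description, since any genes that differ between the groups share that difference. For Ercc5 they were Spz1 (Pearson r = 0.994), Gm15318 (0.993) and R3hdm2 (0.984), and for Apaf1 they were Rbm27 (0.992), Aebp2 (0.991) and Gm5898 (0.990). Trp53inp1 was closest to Slbp (0.986), which encodes the histone mRNA stem-loop binding protein and fell from 83.9 to 51.2 FPKM, then to Gm13136 (0.980) and the protease gene Adam10 (0.973). Trp53, which did not pass the test, was closest to Cd52 (0.966), Ankrd16 (0.953) and Tpgs1 (0.949), each with a mean near 1 FPKM in both groups. Wrap53, which starts 104 bases from Trp53 on the other strand, differed by 0.28 ± 0.24 (limma adjusted p = 0.441).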
